A study of Mus musculus with 6 samples.

Results

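Voltage-gated sodium and calcium channels were compared between differentiating and proliferating enterospheres, the free-floating spheroids that grow from cells of newborn mouse intestinal muscle, with its nerve plexus, in culture. A gene was taken as a member by its symbol: Scn followed by a number, with Scn7a left out, or Cacna, Cacnb or Cacng. Only rows of the array that carried a single gene symbol were used, and for a gene with several rows the brightest, by its mean over 6 arrays, was taken. This gave 34 genes, 10 of sodium and 24 of calcium channels, among 19938 genes with a row of their own, and 5 further genes that match the symbols were not analysed here. The differentiation group held 3 samples that spent 9 days in proliferation medium with EGF and FGF and then 2 days in a medium without these factors. The proliferation group held 3 samples kept in proliferation medium for all 11 days. Each sample was pooled from 3 C57BL/6 newborns per the labels. Enterospheres of both groups were picked while free-floating and were otherwise untreated. Ascorbic acid-2-phosphate was part of the differentiation medium, so its effect and that of growth factor withdrawal cannot be told apart. The labels and the methods differ on the number of pups per culture, the dose of EGF and the division of the first 9 days.

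Voltage-gated channels open when the membrane depolarises. Sodium channels consist of a pore-forming alpha subunit, encoded by the Scn genes that end in a, and of small beta subunits that adjust gating and act in cell adhesion. They carry the upstroke of the action potential in neurons. Calcium channels have a Cacna1 pore, a cytoplasmic beta subunit (Cacnb) and an extracellular alpha2delta subunit (Cacna2d) that brings the pore to the membrane. L-type pores drive contraction in muscle, P/Q-, N- and R-type pores trigger transmitter release, and T-type pores open near the resting potential. Of the gamma genes (Cacng), the first encodes a subunit of the skeletal muscle channel, and most of the others encode TARPs, proteins that traffic and gate glutamate receptors of the AMPA type. Enteric neurons use sodium channels and N-type channels, and gut smooth muscle relies on L-type channels.

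The arrays resembled each other, with correlations between 0.988 and 0.995 within and between 0.983 and 0.989 across the groups. Values are log2 signals, so a difference of 1 is a doubling, and levels of different genes were not set against each other because each row has its own probes. Genes are said to rise or fall where the adjusted p was under 0.05 in limma, a linear model described below. By this test 2.94% of all genes rose and 2.97% fell. Of 15 measured neuron markers 2 rose in differentiating enterospheres, and of 8 enteric glia markers 3 rose and 2 fell. Of 10 markers of the oligodendrocyte lineage 3 rose and 1 fell, and of 12 smooth muscle markers 4 rose and 2 fell. Of 8 markers of interstitial cells of Cajal 2 fell, and of 8 fibroblast markers 1 rose. None of 10 markers of striated muscle, 6 of endothelium, 6 of macrophages and 7 of epithelial and endocrine cells passed limma's adjusted test. Nor did any have an unadjusted p under 0.05 from limma, which 19.1% of all genes had. In such mixed samples, fewer cells of a type and less RNA per cell cannot be told apart.

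One array stood apart in the channel genes, though not in these alone, and values are therefore given with and without it where it turned a sign or changed a call. Proliferation replicate 2 gave the lowest of the 6 values in 25 of the 34 genes, or 73.5%, while it was lowest in 25.7% of all genes and in 27% of those at or above the median row mean. The share was 9 of 10 for sodium channels and 16 of 24 for calcium channels. The exception among the sodium channels was Scn10a. No other array was lowest in more than 5 of the 34. Compared with the mean of the other 2 proliferation arrays, replicate 2 differed by a median of -0.35 over the family and -0.03 over all genes.

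**Figure D1:**
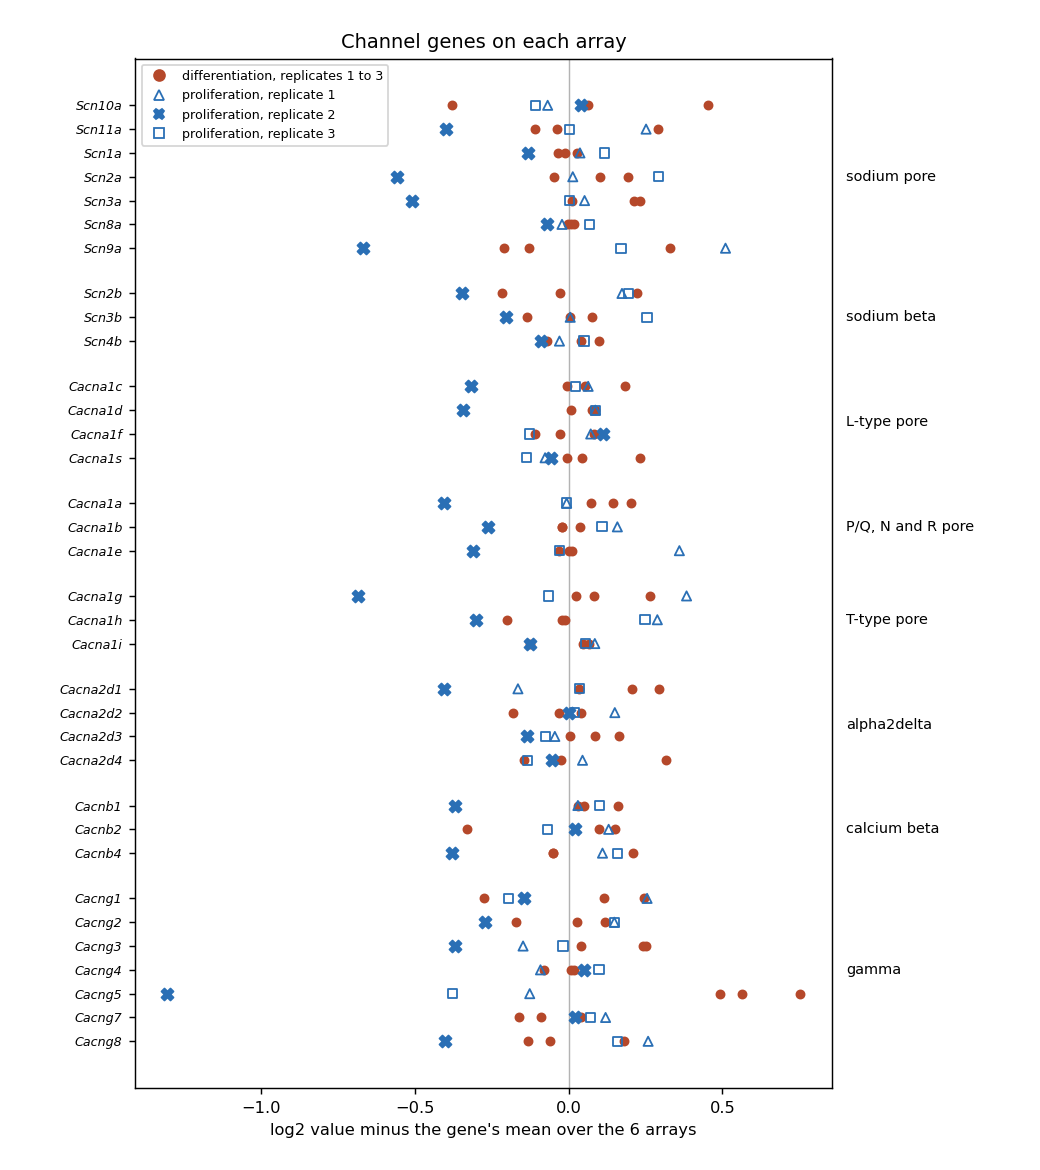
Each channel gene on each array, as its log2 value minus its own mean over the 6 arrays, with genes grouped by subunit. Red circles are the 3 differentiation arrays and blue symbols the proliferation arrays. The filled blue crosses of proliferation replicate 2 lie furthest left in 25 of the 34 genes.

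The SD of the channel genes within a group had a median of 0.11 in differentiation and 0.23 in proliferation over the 34 genes, against 0.11 in both groups over all genes. Among the neuron markers proliferation replicate 2 was lowest in 11 of 15, with a mean log2 level of 9.36, while the other proliferation arrays had 9.74 and 9.81 and the differentiation arrays between 9.66 and 9.82. It was lowest in 6 of 8 fibroblast markers, in 4 of 12 smooth muscle markers, in 3 of 10 of the oligodendrocyte lineage, in 2 of 8 each of enteric glia and interstitial cells of Cajal, in 4 of 10 of striated muscle, in 3 of 6 of macrophages, in 3 of 7 of epithelial and endocrine cells and in 0 of 6 of endothelium. In lists of genes related to the channels it was lowest in 9 of 14 partners of sodium channels and 11 of 18 partners of calcium channels. It was also lowest in 7 of 12 genes of related channels and their accessory proteins and in 6 of 13 genes of calcium release and pumps. The part of these markers in the values of the channels was not tested.

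**Figure D2:**
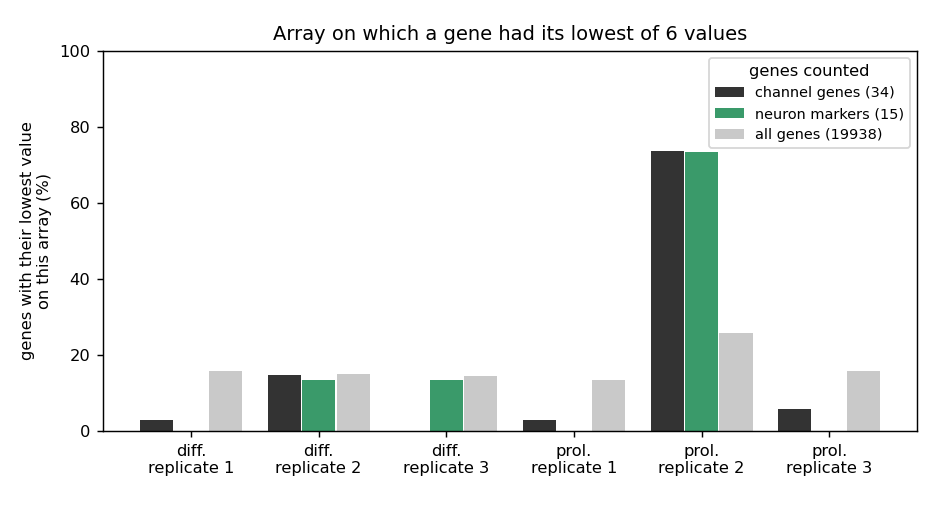
Percentage of genes whose lowest of 6 values fell on each array, for the 34 channel genes, 15 neuron markers and all 19938 genes. Bars start at 0. Proliferation replicate 2 held the lowest value of 73.5% of channel genes and 73.3% of neuron markers, against 25.7% of all genes.

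No channel gene passed the test, and most differences were small. In a linear model over all rows (limma, two-sided, Benjamini-Hochberg adjustment over 35556 rows, call at an adjusted p under 0.05) 0 of the 34 genes passed, against 5.91% of all genes, 2.94% higher and 2.97% lower in differentiation. Over all rows, those without a gene symbol included, the share was 4.1%, with 1.95% higher and 2.15% lower. The lowest adjusted p of the 34 was 0.0805, that of Cacng5. At an unadjusted p under 0.05 from limma there were 3 genes, Cacng5, Cacng3 and Cacna2d1, which is 8.82% of the family beside 19.1% of all genes. The methods' t-test, unadjusted and with at least 1.5-fold, called Cacng5 alone of the family and 4.09% of all rows, while after Benjamini-Hochberg adjustment it called 0 of the 34 and 253 of the 35556 rows. With arrays weighted by their fit limma called 6 of the 34, namely Cacng5, Cacna1s, Cacna2d1 and Cacna2d3 as higher and Cacng7 and Scn3b as lower, but also 35.8% of all rows. The family had 20 genes with a positive difference and 14 with a negative one, a median of 0.06 and a range from -0.16 to 1.21, while the median over all genes was 0.02. Only Cacng5 was at least 1.5-fold apart, which 6.3% of all genes were.

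The 95% interval of the difference, taken gene by gene from limma, stayed inside 1.5-fold either way for 27 of the 34 genes, or 79.4%, as it did for 81.4% of all genes. It did so for 11 of the 13 genes with a mean below the median of all rows. Among the 21 genes at or above that median it did so for 16. No detection call was used, so a narrow interval says less for the dim rows. The interval stayed inside 2-fold for all of the 34 except Cacng5. The other genes with an interval reaching past 1.5-fold were Scn2a, Scn3a, Scn9a, Cacna1g, Cacna2d1 and Cacng3.

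**Figure D3:**
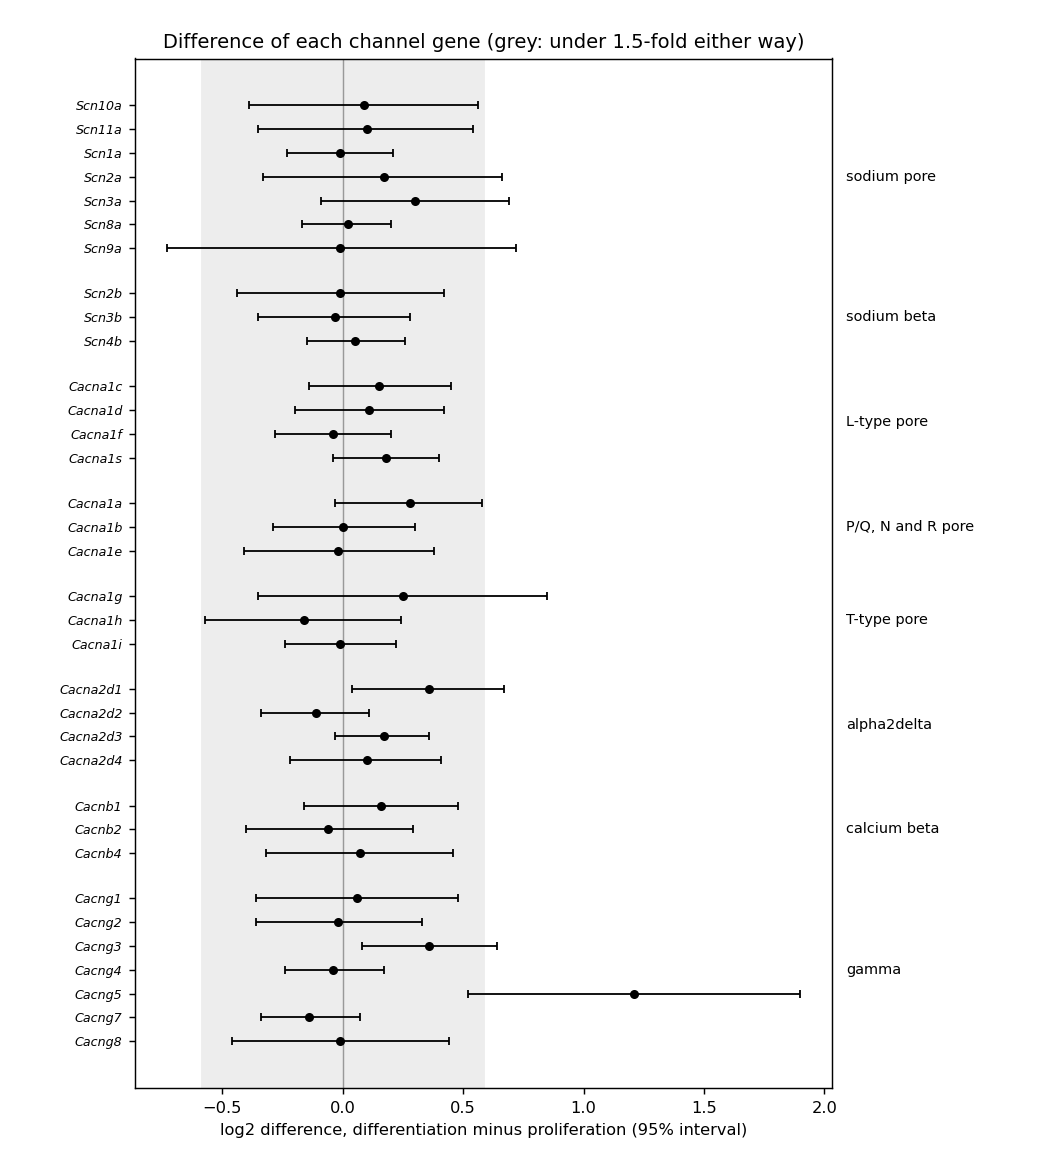
Difference between differentiating and proliferating enterospheres for each of the 34 channel genes, on the log2 scale, with the gene's 95% interval from limma (3 arrays per group). Grey marks differences under 1.5-fold in either direction. 27 intervals lie inside the grey band, and Cacng5, at 1.21, is the one point outside it.

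All of the 7 measured sodium channel pores had differences between -0.01 and 0.30, and none of their groups separated. Scn3a encodes Nav1.3, a pore of embryonic and injured neurons in rodents, and had the largest difference among them. It measured 5.88, 6.10 and 6.08 in differentiation replicates 1, 2 and 3, against 5.92, 5.36 and 5.87 in proliferation replicates 1, 2 and 3. The groups overlapped, and proliferation replicate 2 lay below the other 5 arrays. The difference was 0.30 (95% interval -0.09 to 0.69, adjusted p = 0.456 from limma, exact two-sided permutation p = 0.2, where 3 against 3 arrays allow no less than 0.1). Without proliferation replicate 2 it was 0.12, and Scn9a (-0.34) and Scn10a (0.13) were then further from 0.

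Scn9a encodes Nav1.7, a pore of peripheral neurons. Its values were 7.04, 7.50 and 6.96 in differentiating enterospheres, against 7.68, 6.50 and 7.34 in proliferating ones. Here the proliferation arrays held both the highest and the lowest value, and the mean was 7.17 in either group. The interval, from -0.73 to 0.72, was the widest of the sodium channels. A rise of up to 1.65-fold or a fall to 0.602 of the proliferation level could thus have gone unseen.

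Scn2a encodes Nav1.2, a pore of the axon, and 14 rows of the array carried its symbol alone. On the brightest of them it measured 8.53, 8.62 and 8.38 in differentiation, against 8.44, 7.87 and 8.72 in proliferation. Again proliferation replicate 2 was lowest while replicate 3 of the same group was highest. The difference was 0.17 (95% interval -0.33 to 0.66). Over its 14 rows the differences ran from -0.21 to 0.29, with 12 positive and 2 negative, and 0 of the rows were called by limma (lowest adjusted p = 0.398). A further 3 rows carried the symbols of several Scn genes, could not be given to 1 of them, and differed by 0.10, 0.29 and 0.30.

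The other 4 pores differed by 0.10 or less. Scn8a, for Nav1.6 of mature axons, had the narrowest interval, from -0.17 to 0.20 around a difference of 0.02. Its arrays lay at 6.30, 6.31 and 6.32 in differentiation and at 6.28, 6.23 and 6.37 in proliferation. Scn1a (Nav1.1), Scn10a (Nav1.8) and Scn11a (Nav1.9), the last pair known from sensory neurons, had differences of -0.01, 0.09 and 0.10. The means of Scn3a, Scn1a, Scn10a and Scn11a over the 6 arrays lay below 6.15, the median of all rows. No detection call was used, so for such dim rows a missing difference says less.

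The 3 measured beta subunits of the sodium channel differed by no more than 0.05. Scn4b, whose protein can block the open pore, had the largest difference, 0.05 (95% interval -0.15 to 0.26). It measured 4.60, 4.49 and 4.66 in differentiation, against 4.53, 4.47 and 4.61 in proliferation. Scn3b measured 9.03, 9.24 and 9.17 in differentiation, against 9.17, 8.96 and 9.42 in proliferation. Its difference was -0.03 (95% interval -0.35 to 0.28), and the spread among the proliferation arrays exceeded it. Scn2b differed by -0.01.

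**Figure D4:**
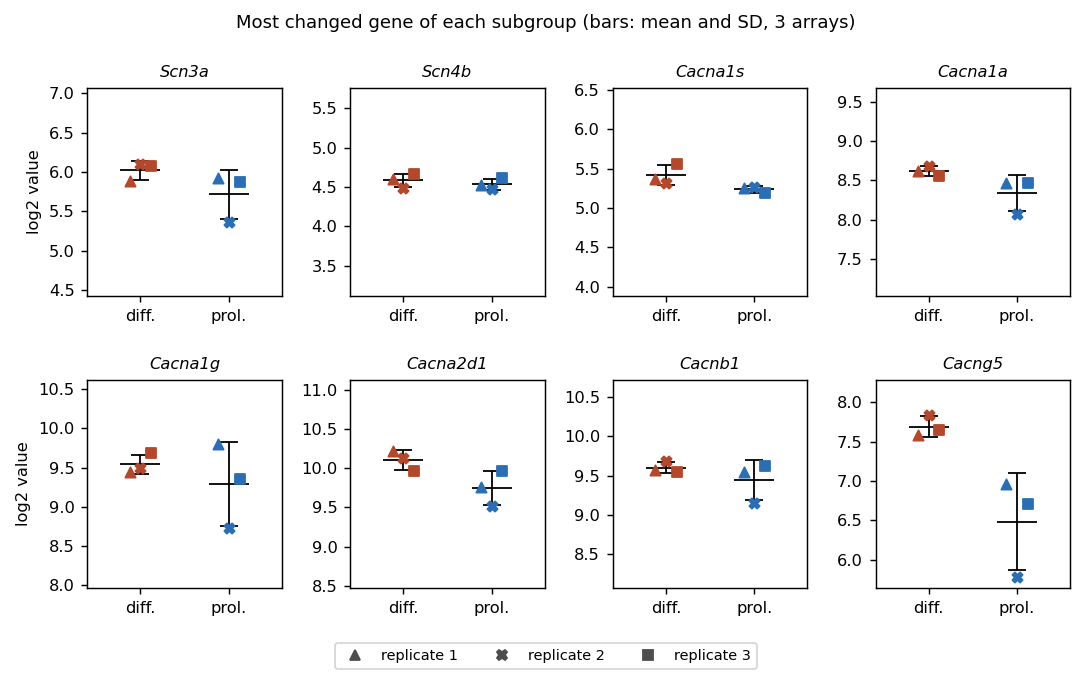
Log2 values on each array for the gene with the largest absolute difference in each of the 8 subgroups, differentiation (red) left of proliferation (blue), with the mean and SD of 3 arrays. All panels span the same range of log2 units. The groups of Cacng5 are furthest apart, and its lowest proliferation value, 5.78, is that of replicate 2.

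Of the 4 L-type pores none passed the test. Cacna1c encodes Cav1.2, through which calcium enters smooth muscle cells, and measured 7.86, 8.05 and 7.92 in differentiation, against 7.93, 7.55 and 7.89 in proliferation. The groups overlapped, and proliferation replicate 2 was the lowest array. The difference was 0.15 (95% interval -0.14 to 0.45, adjusted p = 0.644). Of the 12 smooth muscle markers, Acta2, Actg2, Cnn1 and Tagln passed limma's test as higher, Smtn and Cald1 as lower, and 6 did not pass. Beside this, 2.94% of all genes were called higher and 2.97% lower. The part of these markers in the value of Cacna1c was not tested.

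Cacna1s, the pore of skeletal muscle, had the largest difference of the L-type genes, 0.18 (95% interval -0.04 to 0.40, adjusted p = 0.436). It measured 5.37, 5.32 and 5.56 in differentiation, against 5.25, 5.27 and 5.19 in proliferation, so that the groups did not overlap, by a margin of less than the spread within differentiation. Its mean over the 6 arrays, 5.33, lay below the median of all rows. Cacna1d, a pore of neurons and endocrine cells, differed by 0.11, and Cacna1f, known from the retina, by -0.04.

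Among the pores of transmitter release, Cacna1b encodes the N-type channel Cav2.2. Its values of 10.25, 10.31 and 10.25 in differentiation stood against 10.43, 10.01 and 10.38 in proliferation. The proliferation arrays enclosed those of differentiation, and the means differed by 0.00 (95% interval -0.29 to 0.30). Cacna1e, the R-type pore, differed by -0.02.

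Cacna1a, the P/Q-type pore, had the largest difference of the 3. It measured 8.62, 8.68 and 8.55 in differentiation, against 8.47, 8.07 and 8.47 in proliferation. Every differentiation array lay above every proliferation array, by a narrow margin at the nearest. The difference was 0.28 (95% interval -0.03 to 0.58, adjusted p = 0.374 from limma), and without proliferation replicate 2 it was 0.14.

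T-type pores showed no common direction. Cacna1g (Cav3.1) measured 9.44, 9.50 and 9.68 in differentiation, against 9.80, 8.73 and 9.35 in proliferation. Proliferation replicates 1 and 2 were the highest and the lowest array. The difference of 0.25 (95% interval -0.35 to 0.85) became -0.03 without proliferation replicate 2. Cacna1h (Cav3.2) measured 8.55, 8.54 and 8.36 in differentiation, against 8.85, 8.26 and 8.81 in proliferation. It had the lowest difference of the family, -0.16 (adjusted p = 0.732). Without proliferation replicate 2 this was -0.35 (95% interval -0.60 to -0.10, adjusted p = 0.167), again short of the threshold. Cacna1i (Cav3.3) differed by -0.01.

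The alpha2delta subunits are the sites that gabapentin binds, in the case of the first and second of them. Cacna2d1 measured 10.22, 10.13 and 9.96 in differentiation, against 9.76, 9.52 and 9.96 in proliferation. The lowest differentiation array and the highest proliferation array met at 9.96, and the rest separated. The difference was 0.36, or 1.28-fold (95% interval 0.04 to 0.67, adjusted p = 0.257 from limma, exact permutation p = 0.2). A second row of the gene gave 0.35. Cacna2d3 was higher on each differentiation array, by 0.17 in the mean (adjusted p = 0.40), but both groups lay far below the median row, at 4.47 and 4.30. Cacna2d2 and Cacna2d4 differed by -0.11 and 0.10.

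Of the cytoplasmic beta subunits Cacnb1, Cacnb2 and Cacnb4 were measured, with differences of 0.16, -0.06 and 0.07. Cacnb1 had 9.57, 9.68 and 9.55 in differentiation, against 9.55, 9.15 and 9.62 in proliferation. All arrays but proliferation replicate 2 lay within a narrow band. The 95% interval, from -0.16 to 0.48, excluded 1.5-fold in either direction, as did those of the other 2. The mean of Cacnb2 over the 6 arrays, 5.07, lay below the median of all rows, so its interval says less.

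Cacng5 had the largest difference of all 34 genes. It encodes the gamma-5 protein, a TARP of the type II class. Its values were 7.58, 7.84 and 7.65 in differentiation replicates 1, 2 and 3, against 6.96, 5.78 and 6.71 in proliferation replicates 1, 2 and 3. No differentiation array overlapped with proliferation, and proliferation replicate 2 was the lowest by a wide margin.

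The mean was 7.69 ± 0.13 in differentiating and 6.48 ± 0.62 in proliferating enterospheres (SD, n = 3 each), a difference of 1.21 or 2.31-fold (standard error 0.29, 95% interval 0.52 to 1.90, adjusted p = 0.0805 from limma). The exact permutation p was 0.1, the smallest the design allows. The call depended on the set of rows over which p-values were adjusted. With rows of 1 gene symbol alone the adjusted p was 0.029, where 9.35% of the rows were called, and with rows at or above the median row mean it was 0.0399, where 11.9% were. Without proliferation replicate 2 the difference was smaller, 0.85, but so was its standard error of 0.13 (adjusted p = 0.028 from limma, beside 5.05% of genes and 3.41% of rows called). With any other single array left out it was not called (adjusted p between 0.0548 and 0.224 from limma). Over all alternatives the adjusted p lay between 0.00469 and 0.261. The lowest came with array weights, where 35.8% of all rows were called.

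The other 6 gamma genes had differences between -0.14 and 0.36. Cacng3, a TARP known from the cerebral cortex, had 5.38, 5.59 and 5.58 in differentiation, against 5.19, 4.97 and 5.32 in proliferation. The groups did not overlap, yet the nearest arrays were close. The mean of Cacng3 over the 6 arrays, 5.34, lay below the median of all rows. The difference was 0.36 (95% interval 0.08 to 0.64, adjusted p = 0.196).

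Cacng7, which like Cacng5 is a type II TARP, lay on the other side of 0 at -0.14 (95% interval -0.34 to 0.07). It measured 10.52, 10.72 and 10.59 in differentiation, against 10.80, 10.70 and 10.75 in proliferation. Cacng2 (stargazin), Cacng4 and Cacng8, the remaining TARPs of the first class, and Cacng1 of skeletal muscle differed by -0.02, -0.04, -0.01 and 0.06.

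In 5 of the 34 genes, 14.7%, the arrays of the groups did not overlap, against 27.5% of all genes. All 5, namely Cacng5, Cacng3, Cacna1a, Cacna1s and Cacna2d3, were higher in differentiation, a direction in which 14.6% of all genes separated. In 0 of the 34 were all differentiation arrays lower, which held for 12.9% of all genes. Proliferation replicate 2 was the lowest array in 25 of the 34, and in those this outcome could not occur.

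Without proliferation replicate 2 the family had 14 positive and 20 negative differences and a median of -0.03, and 30 intervals stayed inside 1.5-fold. Over all genes 52.6% of differences were then positive, and 15623 of 19938 intervals stayed inside 1.5-fold. Of the 34 genes 1, Cacng5, was then called, or 2.94%, beside 5.05% of all genes. The difference of Cacna1b, at 0.00 over all arrays, was then -0.13. The positive differences of Cacna1g, Cacna1d, Cacnb4, Scn2a, Scn8a and Scn11a turned to -0.03, -0.03, -0.10, -0.07, -0.02 and -0.08, and the negative one of Cacna1f to 0.01.

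Scn7a, the relative that the symbol rule leaves out, rose. It encodes Nax, which responds to the level of extracellular sodium and not to voltage in the usual manner, and it is known from glia. Its values were 8.79, 8.87 and 8.78 in differentiation, against 6.75, 6.00 and 6.46 in proliferation. The groups lay far apart, although proliferation replicate 2 was again the lowest array. The difference was 2.41 on the log2 scale, or 5.31-fold (95% interval 1.98 to 2.84, adjusted p = 0.00282 from limma). No single array decided the call, the adjusted p being 0.0268 at most when 1 was left out.

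On the assembly of the gene table (GRCm38.p6) Scn7a is the last of 5 sodium channel genes that lie on chromosome 2 in the order Scn3a, Scn2a, Scn1a, Scn9a and Scn7a. The other 4 are members and did not pass the test. Their differences, from -0.01 to 0.30, stood beside 2.41 for Scn7a on the same arrays.

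**Figure D5:**
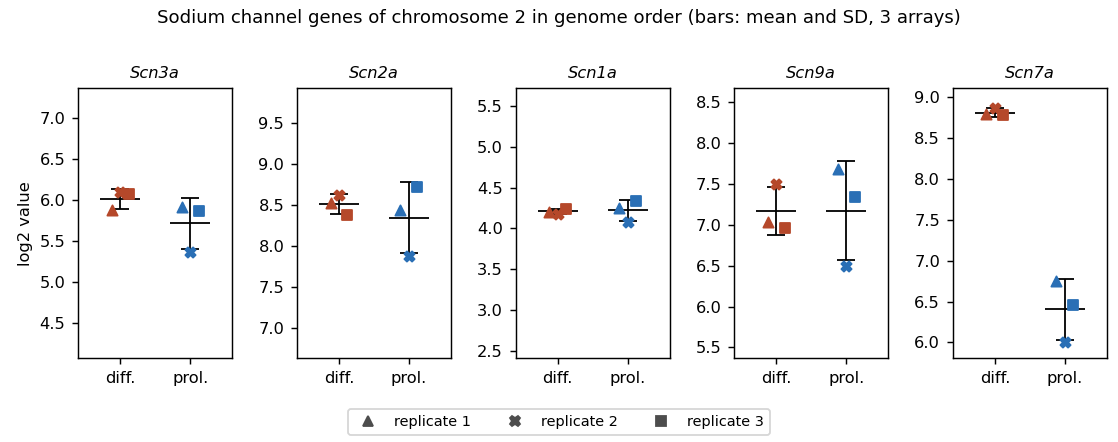
Log2 values of the 5 sodium channel genes of chromosome 2 in genome order, differentiation (red) left of proliferation (blue), with the mean and SD of 3 arrays. All panels span the same range of log2 units. Scn7a is higher in differentiation by 2.41, while its 4 neighbours differ by -0.01 to 0.30.

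Lists of genes that bind or regulate the channels were examined beside them. Of all genes, 2.94% were called higher and 2.97% lower. Of 14 measured partners of sodium channels 3 rose and 11 did not pass. Nrcam, an adhesion molecule that takes part in gathering sodium channels at nodes of Ranvier, had 10.46, 10.44 and 10.34 in differentiation, against 9.32, 8.78 and 9.18 in proliferation, a difference of 1.32 (adjusted p = 0.00647 from limma). Nedd4l, a ubiquitin ligase that removes sodium channels from the membrane, had 10.85, 10.83 and 10.66 in differentiation, against 10.01, 10.20 and 10.13 in proliferation, a difference of 0.67 (adjusted p = 0.0146). Fgf11, a relative of FGFs that stays inside the cell and binds the channel, had 8.49, 8.46 and 8.49 in differentiation, against 7.96, 7.75 and 8.04 in proliferation, a difference of 0.57 (adjusted p = 0.0263). In all 3 genes every differentiation array lay above every proliferation array. The anchoring protein Ank3 had a difference of 0.69 that did not pass (adjusted p = 0.257), and it was picked out after its value had been seen.

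Of 18 measured partners and regulators of calcium channels 3 rose and 15 did not pass, where 2.94% of all genes were called higher. Stac2, an adaptor that binds L-type channels, had 7.02, 7.09 and 7.16 in differentiation, against 6.00, 5.81 and 5.84 in proliferation, a difference of 1.21 (adjusted p = 0.00281 from limma). Camk2a, a kinase that calcium and calmodulin activate, had 9.15, 9.37 and 9.16 in differentiation, against 8.43, 7.73 and 8.14 in proliferation, a difference of 1.12 (adjusted p = 0.0203). Ahnak, a large scaffold protein that binds the channel's beta subunit, had 9.91, 9.80 and 9.78 in differentiation, against 9.20, 8.73 and 8.81 in proliferation, a difference of 0.92 (adjusted p = 0.0159). The groups of these 3 genes did not overlap either. The medians of both lists, 0.20 and 0.05, stood beside 0.06 for the channels and 0.02 for all genes.

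Of 12 genes of related channels and their accessory proteins, Scn7a rose and Tpcn1 fell, beside 2.94% of all genes called higher and 2.97% lower. Tpcn1, a pore of endosomes and lysosomes, had 8.99, 9.12 and 9.17 in differentiation, against 10.09, 9.72 and 9.76 in proliferation, a difference of -0.76 (adjusted p = 0.0203 from limma). Nalcn, the sodium leak channel of neurons, differed by -0.09 (95% interval -0.41 to 0.23). Nrcam and Stac2, like Scn7a, passed with each array left out. The call was lost for Nedd4l and Ahnak without differentiation replicate 1 or 2 or proliferation replicate 3 (adjusted p up to 0.0884 and 0.0909). It was lost for Camk2a and Tpcn1 when any 1 differentiation array or proliferation replicate 3 was left out (up to 0.0909 and 0.107), and for Fgf11 when any 1 array other than proliferation replicate 2 was (up to 0.131).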

How the data were processed

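Total RNA of 6 enterosphere samples, 3 differentiating and 3 proliferating, was measured on 1-colour Affymetrix arrays. The deposited values are log2 signals that the authors made with RMA in Partek Software. RMA corrects background, gives the probe signals of all arrays the same distribution and then summarises each row's probes. A change shared by most genes would therefore not be seen. The genome build is not given in the sources used here. Platform annotation supplied the gene symbols: 21789 of the 35556 rows had 1, 1621 several and 12146 none. The gene table used for gene order was of the assembly named above. Whether the rows of the array were built on the same assembly is not known.

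Groups were compared by a linear model with empirical Bayes moderation (lmFit, eBayes) in limma 3.58.1 under R 4.3.3, two-sided, with Benjamini-Hochberg adjustment over all rows, no filter and a prior of 2.83 degrees of freedom. Intervals are 95% intervals of the moderated statistic and are not adjusted for the number of genes. Figures were drawn in Python 3.11.15 with pandas 2.3.3 and matplotlib 3.10.9. The steps were tested on simulated data. Precision is limited by the number of arrays. The methods speak of independent experiments, but no label ties a replicate number to one, so p-values measure the spread between these samples, which may be technical.

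The members, the 4 lists of related genes and the 10 lists of cell type markers were chosen with earlier results of these data known. Values of every array were given for channel genes past the test or with separate groups at least 1.5-fold apart and for the most changed gene of each subgroup. From each list of related genes, up to 4 past the test were named. Further genes given array by array were picked after their values had been seen. The alternatives tried were a replicate block, a robust limma-trend fit, cyclic loess, centring on the median, a filter at the median row mean, rows with 1 symbol, array weights, each array left out, the methods' t-test in its stated form and after adjustment, and the mean of all rows of a gene.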

Additional observations from a re-analysis of the deposited data

How the results depend on the processing

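The family held 0 called genes with a replicate block, a robust trend fit, cyclic loess, centred arrays and the adjusted t-test. It held 1, Cacng5, after the filter at the median row mean (11.9% of rows called) and with rows of 1 gene symbol (9.35%). The same gene alone was called with the methods' t-test at 1.5-fold (4.09%) and with the mean of all rows of a gene. The share of all genes called by that last fit was not counted. With array weights the family held 6 (4 higher, 2 lower), where 35.8% of all rows were called. Leaving out 1 array gave between 0 and 1, beside 1.29% to 5.06% of all genes. Deviations of same-numbered arrays correlated at 0.00, 0.09 and -0.07. Differentiation replicates 1, 2 and 3 matched proliferation replicates 2, 3 and 1 best. With 3 arrays per group these values cannot decide whether samples were paired. Over all rows, 1459 were called (693 higher, 766 lower), 664 with the replicate block, 12721 with array weights (7315 higher, 5406 lower), 253 with the adjusted t-test, and between 294 and 1297 with 1 array left out. With the replicate block 1 partner of sodium channels, 2 of calcium channels, 1 related channel and 0 genes of calcium release and pumps were called. The calls lost were those of Nedd4l, Fgf11, Camk2a, Tpcn1 and Atp2a3 (adjusted p = 0.0642, 0.0815, 0.0755, 0.0849 and 0.0757 from limma). With 1 array left out the called genes numbered 1 to 3 for partners of sodium channels, 1 to 4 for those of calcium channels, 1 to 2 for related channels and 0 to 1 for calcium release and pumps.

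Directions of small differences were not stable: 19 of the 34 genes changed sign in some alternative, besides Cacna1b, which was at 0.00 over all arrays and between -0.13 and 0.08 with 1 array left out. The cause was not tested. With array weights the differences were 0.06 for Cacna1f, 0.01 for Cacna1i, 0.12 for Cacnb2, -0.14 for Cacnb4, -0.06 for Scn11a, -0.07 for Scn2a and -0.05 for Scn8a. Scn8a was at -0.02 with cyclic loess and with centred arrays. The lowest and highest differences with 1 array left out were -0.03 and 0.18 for Cacna1d, -0.17 and 0.16 for Cacna1e, -0.12 and 0.01 for Cacna1f, -0.03 and 0.50 for Cacna1g, -0.08 and 0.05 for Cacna1i, -0.04 and 0.19 for Cacna2d4, -0.14 and 0.10 for Cacnb2, -0.10 and 0.17 for Cacnb4, -0.05 and 0.21 for Cacng1, -0.16 and 0.07 for Cacng2 and -0.22 and 0.12 for Cacng8. For sodium channels they were -0.12 and 0.30 for Scn10a, -0.08 and 0.25 for Scn11a, -0.08 and 0.04 for Scn1a, -0.07 and 0.35 for Scn2a, -0.19 and 0.09 for Scn2b, -0.14 and 0.09 for Scn3b, -0.02 and 0.06 for Scn8a and -0.34 and 0.25 for Scn9a. Of the 34 genes 13 had a mean below the median of all rows, and signal over background was not measured here.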

Other observations

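Of 13 measured genes whose proteins release calcium from internal stores or move it out of the cytoplasm 1 fell and 12 did not pass limma's test, with a median difference of 0.07. Beside this, 2.97% of all genes were called lower and 2.94% higher. Atp2a3, the SERCA3 pump that returns calcium to the endoplasmic reticulum, had 9.35, 9.60 and 9.56 in differentiation, against 10.87, 10.21 and 10.76 in proliferation. The groups were apart by more than their spread, and the difference was -1.11 (adjusted p = 0.0219 from limma). It passed without proliferation replicate 2 but not without any other array (adjusted p up to 0.109). Atp2a2, the SERCA2 pump found in smooth muscle and most other cells, differed by -0.14, and the ryanodine receptors Ryr1, Ryr2 and Ryr3 by 0.08, 0.20 and 0.07.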
